A study of Homo sapiens with 6 samples.

Results

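Ras-induced senescence was compared with growth in human fibroblasts by means of 4 of the 6 arrays of the series, chosen by their labels alone: 2 arrays of growing cells and 2 arrays of cells in oncogene-induced senescence (OIS) that had received a control small interfering RNA (Ctrl-KD OIS). All cells were IMR90, a strain of normal human lung fibroblasts, engineered to carry an oncogenic H-Ras fused to the estrogen receptor (ER:Ras), which 4-hydroxytamoxifen (4-OHT) switches on. Growing cells received neither 4-OHT nor siRNA. Ctrl-KD OIS cells were kept in 100 nM 4-OHT for 6 days and were transfected with the control siRNA, directed against luciferase, 2 days after 4-OHT was added, so 4 days before RNA was collected. Each array was labelled from 250 ng of RNA, and the labels call the arrays of a group biological replicates. The other 2 arrays, from OIS cells depleted of RB1, did not enter the comparison. Because only the senescent cells met 4-OHT, transfection reagent and siRNA, the effects of these and of senescence cannot be told apart here.

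Senescence is a lasting exit from the cell cycle. In the textbook account, the CDK inhibitors p16 and p21 keep the retinoblastoma protein (RB) and its relatives unphosphorylated, RB holds E2F factors silent at genes for DNA replication, and the DREAM complex holds genes for mitosis silent through a short element called CHR. Senescent cells also secrete proteases, growth factors and inflammatory factors, under NF-kB, C/EBP-beta and AP-1 factors and the cytokine IL1A at the cell surface. The account below concerns the functions other than glycolysis and the secreted cytokines.

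Signals are those the authors deposited, in arbitrary units on a linear scale. They are given array by array, with the growing arrays first, and every difference is Ctrl-KD OIS minus growing on the log2 scale. With n = 2 arrays a group, each difference has limma's moderated standard error (SE) and its p adjusted by the method of Benjamini and Hochberg. A moderated SE draws on the spread of other genes, so it is not the spread of a gene's own arrays alone. A gene stands for its brightest probe set, and a probe set's level says nothing of another's. A gene below the array median on both arrays of a group was called dim there, and its change is given as "at least" a fold against that median. Where only 1 array of a group lay below it, as for CXCL2, FGF7, G0S2, H3C6, KCNJ15, OXTR and PRRX2, the fitted difference is given, and its size is uncertain. No exact permutation test of 2 against 2 arrays can go below p = 0.333, so no such test was run on single genes.

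The arrays were alike in scale, with median signals of 46.0 to 51.8 and highest signals of 54241.6 to 61642.1. Pearson correlations of log2 signal over the 12863 tested genes were 0.978 within the growing group, 0.976 within the Ctrl-KD OIS group and 0.888 to 0.894 between groups. RB1 measured 2627 and 2528 in growing cells and 2578 and 1914 in Ctrl-KD OIS cells, a difference of -0.21 ± 0.14 (SE) with an adjusted p of 0.265. HRAS measured 24229 and 22654 against 22631 and 27036, a difference of 0.08 ± 0.10 (SE) with an adjusted p of 0.572. Without Ctrl-KD OIS replicate 1 both were called, RB1 at -0.43 and HRAS at 0.21. Whether the HRAS probe set reads the transgene is not known, and ER fusions are switched on as proteins, so these values do not check the labels.

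Fibroblast markers were mostly lower, and markers of other cell types were, with 1 exception, dim or not called. COL1A1, VIM and FN1, which encode collagen I, vimentin and fibronectin, stayed between 37477 and 46079 on all 4 arrays and were not called, although signals of that size are near the top of the scale. All 3 other COL1A1 probe sets tested were dimmer and were called lower, at -2.33 to -0.67, the brightest of them from 13098 and 13149 to 4055 and 3675 (-1.77). With its probe sets averaged, COL1A1 was called lower at -0.39. Of the other FN1 probe sets, 1 was called, higher at 0.62, at signals of 288 to 550.0. Of 12 fibroblast markers, 8 were lower and 1, FAP, was higher, at 0.34, but was not called without growing replicate 1 (0.24). No member of the lists for epithelial cells (4 tested of 8) or blood cells (3 tested of 7) was called, nor was any of the 3 tested endothelial markers of 6 except TEK, which was lower. The other markers of these lists were not tested, most of them because they were too dim. HBB, of the blood list, was not called by its brightest probe set (-0.71), but others were called lower, at -2.30 and -1.95. All 9 tested senescence markers of 10 changed: CDKN1A, CDKN2A, CDKN2B, IL1A and IL1B were higher, and LMNB1, HMGB2, MKI67 and CCNA2 were lower.

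At an adjusted p under 0.05, 2701 genes rose, which is 21.0% of those tested, and 2854 genes fell, which is 22.2%. Together they made up 43.2% of the tested genes, and this is the background for each count below. Among the called genes, 855 rose and 1304 fell by more than 2-fold. By the fitted differences, the largest changes leaned the other way, with 44 genes up and 12 down by more than 32-fold. Of the 12863 tested genes, the arrays of the groups did not overlap for 4566 that were higher and 4769 that were lower. Most tested genes, called or not, met this condition, so it does not by itself set a gene apart. Of the called genes, 147 that rose were dim in growing cells and 129 that fell were dim in Ctrl-KD OIS cells. Where such genes are named, a bound on the fold is given. Counts and gene sets by size of change, here and below, use the fitted differences instead, dim genes included. CYP26B1 and ANO1, for example, count as over 32-fold, with bounds of 16.8-fold and 19.1-fold. When all probe sets of a gene were averaged, dim ones included, ALDH1A3, CCNB2, HMGB2, HSPG2, IFIT2, ORC5, SERPINB8, SERPINB9, SLC40A1, SPRY1, TEK, TXNRD1 and ZEB2 were no longer called, each with its direction kept, and CCNE1, CDKN2A, HBEGF and IKBKB are described below. Without a trend in limma's prior variance, FAP, HES1, ORC5, RPS25 and SPRY1 were not called.

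Among the 20 genes with the largest rises, 6 were chemokines and 2 were interleukin 1 genes, and the other 12 had varied functions. TNFSF15, a ligand of the tumour necrosis factor family, measured 77.8 and 84.5 in growing cells and 28452 and 29200 in Ctrl-KD OIS cells (log2 difference 8.47 ± 0.10, adjusted p = 3.93e-08). PTGS2, the inducible cyclooxygenase, measured 74.6 and 109 against 22319 and 18602 (7.82 ± 0.18, adjusted p = 5.84e-07). G0S2, an inhibitor of fat breakdown, measured 52.4 and 44.2 against 6686 and 9265 (7.35 ± 0.18, adjusted p = 6.64e-07). In each of these the groups were far apart and the arrays of a group lay close together. Dim in growing cells and bright in Ctrl-KD OIS cells were BCL2A1, a survival factor of the BCL2 family (at least 113-fold), THBD, the anticoagulant receptor thrombomodulin (at least 92.5-fold), and EHF, an epithelial ETS transcription factor (at least 92.3-fold). The protease inhibitors SERPINB4 and SERPINB3 (at least 84.1-fold and 82.9-fold) and CYP26B1, which breaks down retinoic acid (at least 16.8-fold), behaved likewise. SERPINB3 and SERPINB4 are near-identical in sequence, so their probe sets may read each other's RNA.

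The 20 genes with the largest falls had varied functions. COL15A1, a collagen of the basement membrane zone, measured 3284 and 2912 in growing cells and 38.3 and 30.2 in Ctrl-KD OIS cells, which is at least 65.1-fold lower. CEMIP, which takes part in the breakdown of hyaluronan, measured 5573 and 4970.3 against 113 and 102 (-5.62 ± 0.13, adjusted p = 5.84e-07). TNFSF4, the ligand OX40L, measured 7227 and 7842 against 262 and 219 (-4.98 ± 0.12, adjusted p = 6.11e-07). The groups were thus separated by more than 20 times in each case. NUPR1, a stress-induced chromatin protein, fell from 3317 and 3582 to 59.5 and 118 (-5.36 ± 0.29, adjusted p = 1.13e-05). NTN4, a netrin of basement membranes, fell by 4.95 on the log2 scale, ZFPM2, a cofactor of GATA factors, by 4.94, and OXTR, the oxytocin receptor, by 5.78.

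**Figure D1:**
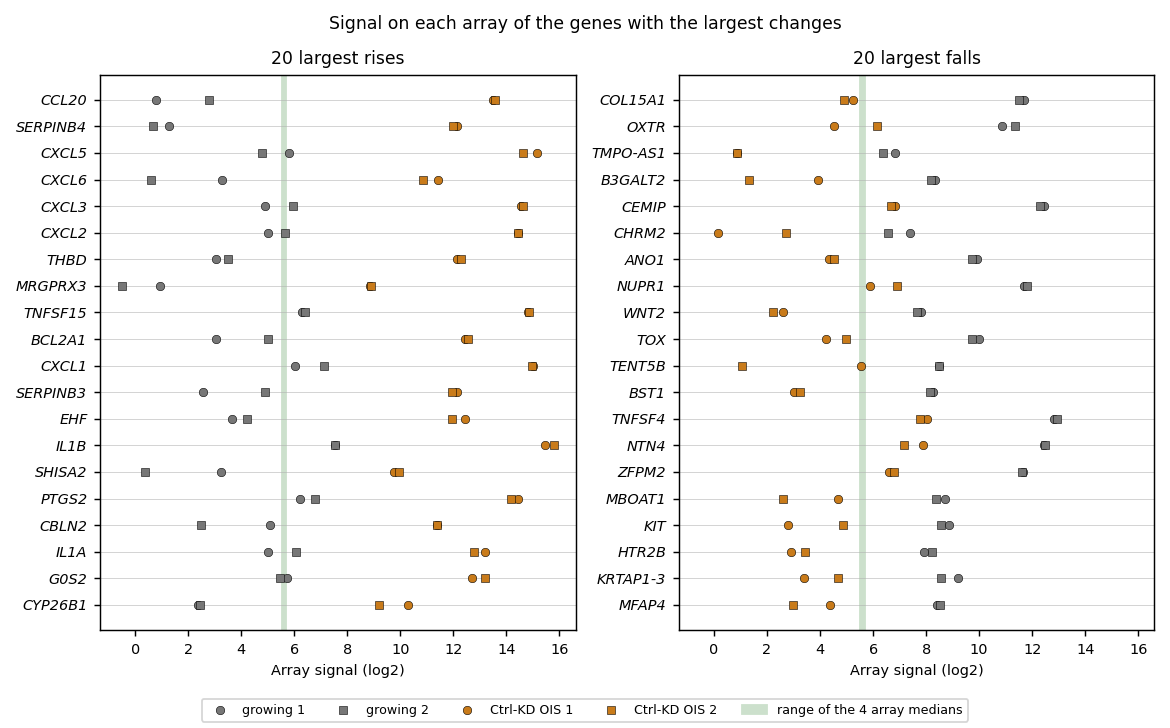
Array signals (log2) of the 20 genes with the largest rises and the 20 with the largest falls, with growing arrays in grey, Ctrl-KD OIS arrays in orange and the range of the array medians as a green band. The groups do not overlap for any gene shown, as the choice of these genes required, and many points left of the band are too dim to be ordered.

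The tested genes were then read by function in 61 lists. In 17 lists the median difference was under -0.5 and in 7 it was over 0.5, beside a median of -0.02 over all tested genes. The 17 were the lists for mitosis, origin licensing, recombination, DNA synthesis and cyclins, for contractile genes, collagens, basement membrane and integrins, for the VEGF, TGF-beta, WNT and IGF families, for mesenchymal transcription factors and clock genes, and for interferon-stimulated genes and amino acid transporters. The 7 were the lists for histone genes, SERPINB genes, matrix metalloproteinases, EGF ligands, the vacuolar ATPase, metallothioneins and targets of ERK. Members dim in both states were not tested, so medians of partly tested lists may lean to genes bright in a single state. That state may be OIS, as for the SERPINB list, or growing cells, as for the WNT list.

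**Figure D2:**
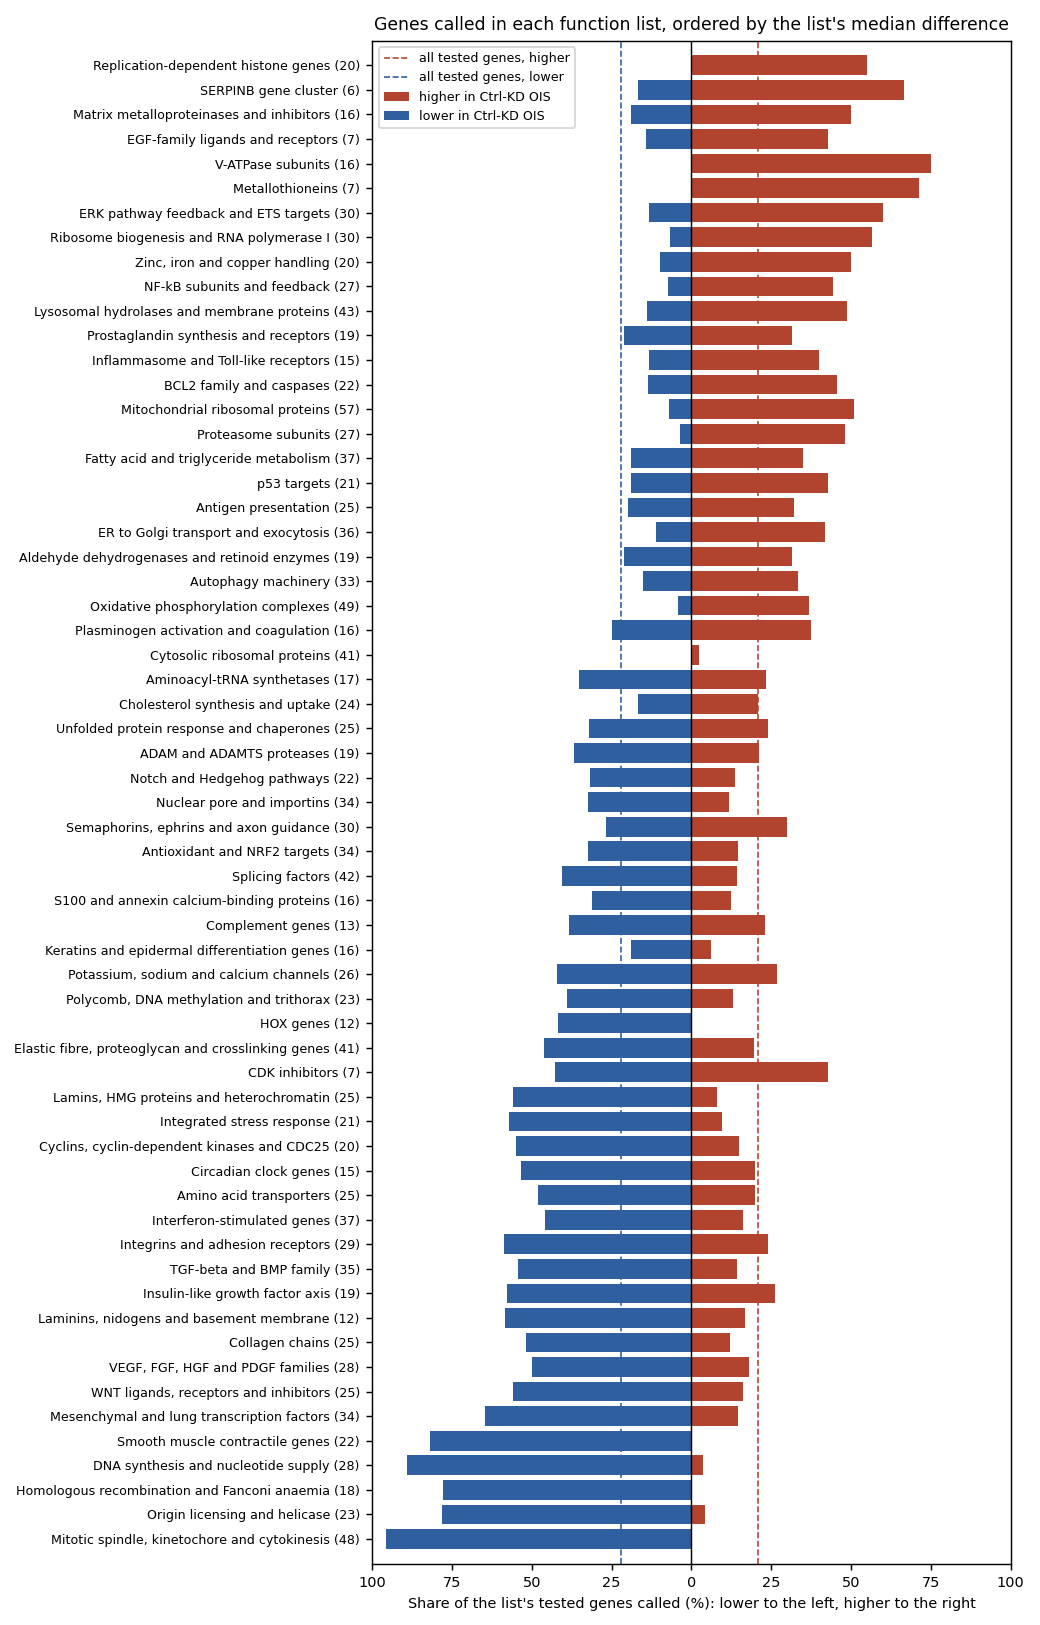
Share of the tested members of each list that were called lower (to the left) or higher (to the right) in Ctrl-KD OIS cells, in percent, with the number tested in parentheses and the shares over all tested genes, 22.2% and 21.0%, as dashed lines. The lists are ordered by median difference, from replication-dependent histone genes at the top (1.36) to the mitotic list at the bottom (-2.71).

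Genes of cell division fell almost as a block. Of 48 genes for the spindle, kinetochore and cytokinesis, 46 fell, none rose and the median difference was -2.71, beside 22.2% of all genes called lower. KIF20A, a kinesin of the midzone, measured 2516 and 1934 in growing cells and 117 and 203 in Ctrl-KD OIS cells (log2 difference -3.84 ± 0.26, adjusted p = 3.15e-05). ASPM, a protein of the spindle poles, measured 2777 and 3149.9 against 179 and 297 (-3.68 ± 0.22). TOP2A, which untangles DNA before chromosomes part, measured 3187 and 3016 against 204 and 317 (-3.61 ± 0.20). The checkpoint kinase BUB1B measured 1805 and 1768 against 123 and 182 (-3.58 ± 0.20). In OIS all 4 stayed above the array median, so their low level was still measured, and the groups did not overlap. In bulk RNA, fewer cells that express a gene and less of its RNA per cell cannot be told apart.

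Genes of the earlier steps fell by less. Of 23 genes for origin licensing and the replicative helicase, 18 fell and 1 rose, with a median of -1.61. MCM6, a helicase subunit, measured 3504 and 3302 against 604 and 544 (-2.57 ± 0.11, adjusted p = 3.94e-06). CDC6, which loads the helicase, measured 677 and 682 against 97.2 and 212 (-2.24 ± 0.34, adjusted p = 0.00142). The growing and OIS arrays were apart for both, although the OIS arrays of CDC6 differed by more than 2-fold. ORC5, a subunit of the origin recognition complex, was the member that rose, by 0.48, and it was not called without growing replicate 1 (0.47) or Ctrl-KD OIS replicate 2 (0.26). Of 28 genes for DNA synthesis and nucleotide supply, 25 fell and 1 rose, with a median of -1.34. TYMS, the enzyme that makes thymidylate, measured 10723 and 10966 against 1882 and 2053 (-2.46 ± 0.08), and TK1, thymidine kinase, fell by 2.90 on the log2 scale. RPA2, a subunit of the protein that coats unwound DNA, was the exception, at 0.44, and was not called without growing replicate 2 (0.40). Of 18 tested genes for homologous recombination and the Fanconi anaemia pathway (24 listed), 14 fell and none rose, with BARD1, the partner of BRCA1, at -2.98 and the helicase BRIP1 at -2.39.

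Regulators of the cycle fell more often than they rose. Among 20 cyclins, CDKs and CDC25 phosphatases, 11 fell and 3 rose. CDK1, the mitotic kinase, measured 5508 and 5177 against 278 and 774 (-3.52 ± 0.40), and its partner CCNB2 measured 3652 and 3642 against 339 and 581 (-3.04 ± 0.23). The E-type cyclins, which drive entry into S phase, moved in opposite directions. CCNE1 measured 465 and 411 in growing cells and 893 and 901 in Ctrl-KD OIS cells (log2 difference 1.04 ± 0.13, adjusted p = 0.000555), whereas CCNE2 measured 806 and 777 against 61.8 and 108 (-3.28 ± 0.28, adjusted p = 8.32e-05). The CCNE1 call was lost when all its probe sets were averaged, though its direction held.

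Since RB and DREAM act at promoters, the promoters of these genes were searched for the sequences of the elements. RefSeq promoters of 10099 tested genes (250 bases before to 50 after the start, build GRCh38.p14) were scanned on both strands for TTTGGCGC, TTTCCCGC, TTTGCCGC or TTTCGCGC as E2F motifs and for TTTGAA as the CHR. The promoters of CDC6 (chr17:40287629-40287908, plus strand), BUB1B (chr15:40160819-40161098, plus strand) and CCNB2 (chr15:59104896-59105175, plus strand) show where the matches lie in genes whose fall is described above. Each runs from 250 bases before to 30 bases after the start, and capitals mark the E2F motif in CDC6, 7 bases after the start, and the CHR motif in BUB1B and CCNB2, 23 and 29 bases before it.
CDC6: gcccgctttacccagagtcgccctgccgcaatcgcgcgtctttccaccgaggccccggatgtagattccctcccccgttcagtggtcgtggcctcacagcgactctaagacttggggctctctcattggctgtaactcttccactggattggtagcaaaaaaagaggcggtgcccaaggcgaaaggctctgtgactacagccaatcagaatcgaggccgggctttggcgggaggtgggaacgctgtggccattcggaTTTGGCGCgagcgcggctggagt
BUB1B: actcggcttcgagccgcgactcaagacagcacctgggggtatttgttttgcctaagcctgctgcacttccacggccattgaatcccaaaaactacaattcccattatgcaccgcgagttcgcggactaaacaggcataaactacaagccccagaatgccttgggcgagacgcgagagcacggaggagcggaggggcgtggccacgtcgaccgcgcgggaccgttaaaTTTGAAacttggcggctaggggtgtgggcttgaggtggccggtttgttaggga
CCNB2: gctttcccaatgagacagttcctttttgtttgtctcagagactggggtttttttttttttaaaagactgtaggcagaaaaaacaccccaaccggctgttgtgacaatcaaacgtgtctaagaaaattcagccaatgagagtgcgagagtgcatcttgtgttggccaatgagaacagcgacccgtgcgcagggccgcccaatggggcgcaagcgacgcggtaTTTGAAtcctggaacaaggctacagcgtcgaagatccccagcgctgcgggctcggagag

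The motifs divided along the steps of the cycle. An E2F motif was present in 50% of the 20 licensing promoters and 32% of the 25 promoters for DNA synthesis, against 5.34% of all tested genes and 3.33% of the 27305 promoters of the whole table. The CHR motif was present in 75% of the 40 mitotic promoters, against 10.1% of all tested genes and 15.4% of the whole table, and in 5% of the licensing promoters. Among the 137 promoters of genes whose fitted fall was over 8-fold, 29.9% held a CHR and 7.3% an E2F motif. Among all 2297 promoters of genes called lower the shares were 13.5% and 7.14%. A match is a description of the letters in the window, not of a factor bound there.

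**Figure D3:**
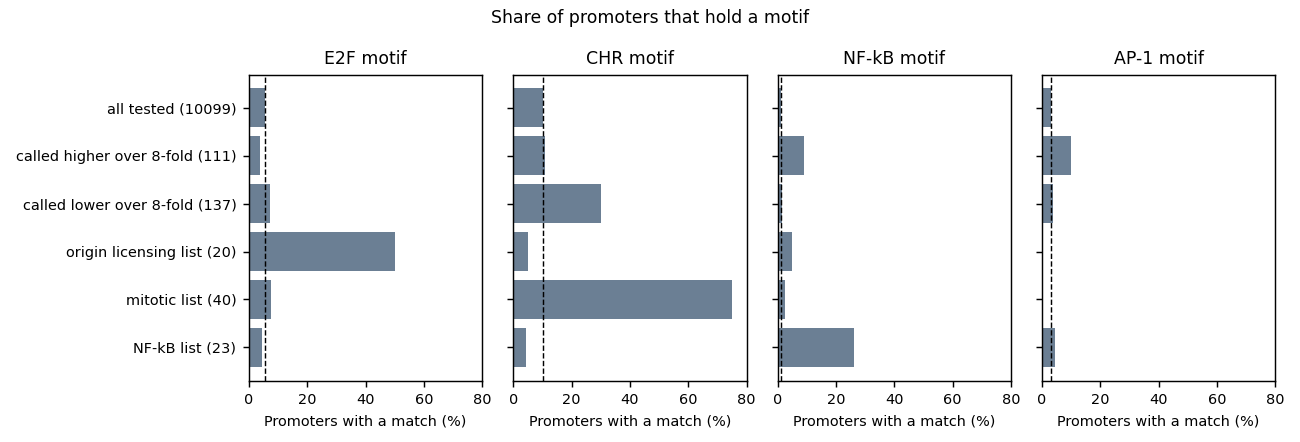
Percent of promoters that hold each motif, for all tested genes, for genes called with changes over 8-fold and for the licensing, mitotic and NF-kB lists, with the number of promoters in parentheses and the share over all tested genes as a dashed line. The E2F bar is longest for the licensing list (50%), the CHR bar for the mitotic list (75%) and the NF-kB bar for the NF-kB list (26.1%).

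The inhibitors that act on these cyclins went both ways. Of 7 CDK inhibitor genes, CDKN2B, CDKN2A and CDKN1A rose and 3 fell. CDKN2B, which encodes p15, measured 573 and 472 in growing cells and 2213 and 1815 in Ctrl-KD OIS cells (log2 difference 1.95 ± 0.15, adjusted p = 5.01e-05). CDKN2A, the gene of p16 and ARF, measured 588 and 537 against 1096 and 1150.5 (1.00 ± 0.12, adjusted p = 0.000428), and averaging its probe sets left it uncalled at 0.28. CDKN1A, the p21 gene, was already at 10394 and 11130 in growing cells and reached 17634 and 18714 (0.76 ± 0.08). All 3 were higher on both OIS arrays than on either growing array. CDKN3, a phosphatase that is itself a mitotic gene, fell by 3.52 on the log2 scale. Targets of p53 were mixed, with 9 of 21 higher, 4 lower and a median of 0.18. GDF15, a stress-induced hormone, measured 2430.1 and 2418 against 14627 and 14677 (2.60 ± 0.08), RRM2B, a ribonucleotide reductase subunit, rose by 1.12, and GADD45A fell by 0.69 on the log2 scale.

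Nuclear structure and chromatin genes fell more often than they rose. Of 25 genes for lamins, high mobility group proteins and heterochromatin, 14 fell and 2 rose. LMNB1, the B-type lamin whose loss marks senescence, measured 2528 and 2365 against 307 and 322 (-2.96 ± 0.11, adjusted p = 2.66e-06). HMGB2, a DNA-bending protein, measured 10148 and 10273 against 914 and 1342 (-3.21 ± 0.17, adjusted p = 9.5e-06). HMGA2, an architectural protein of senescent chromatin, ran against the list, from 15779 and 17677 to 24853 and 23584 (0.54 ± 0.09, adjusted p = 0.00189). Dimmer HMGA2 probe sets were called higher by more, at 1.82, 2.36, 2.47 and 2.71, while another was not called, at 0.43. Among 23 genes of Polycomb, DNA methylation and trithorax, 9 fell and 3 rose. UHRF1, which guides the maintenance DNA methyltransferase, fell by 2.07 on the log2 scale and EZH2, the Polycomb methyltransferase, by 1.69.

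Replication-dependent histone genes that were called all rose. Of 39 listed, 28 had a probe set of their own and 20 were tested, of which 11 rose, none fell and the median was 1.36, beside 21.0% of all genes called higher. H4C8 measured 107 and 118 in growing cells and 613 and 754 in Ctrl-KD OIS cells (log2 difference 2.60 ± 0.19, adjusted p = 4.46e-05). H2BC4 measured 138 and 176 against 712 and 608 (2.08 ± 0.19), and H3C6 measured 47.8 and 70.9 against 305 and 374 (2.53 ± 0.30). The groups did not overlap in these 3 genes, all of them low in growing cells. Members that were dim everywhere were left out, so the count leans to those that are bright in OIS. As background, these mRNAs normally end in a stem-loop without a poly(A) tail, and the genes are close copies of each other, so that a probe set may read several.

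Structural matrix genes fell more often than they rose. Of 25 tested collagen genes, 13 fell, 3 rose and the median was -0.74 (-0.47 with dim genes at their bound). COL3A1, a fibrillar collagen, measured 26259 and 27508 against 8873 and 7594 (-1.71 ± 0.09), and COL1A2 measured 43226 and 44420 against 21027 and 20698 (-1.07 ± 0.07). COL10A1, the collagen of hypertrophic cartilage, was the largest rise, from 65.8 and 83.2 to 1066 and 862 (3.70 ± 0.21). Among 41 genes of elastic fibres, proteoglycans and crosslinking, 19 fell and 8 rose. DCN, the proteoglycan decorin, measured 21450 and 20994 against 3202 and 3342 (-2.70 ± 0.08). EFEMP1 and FBLN1, which are fibulins, were at -3.69 and -3.32, MFAP4, a microfibril protein, was at least 7.49-fold lower, and THBS2, a thrombospondin, rose by 1.37. In the basement membrane list, 7 of 12 fell, with HSPG2, the proteoglycan perlecan, at -1.70, and 2 rose, with the laminin chain LAMB3 at least 6.4-fold higher and LAMA4 at 1.23.

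Genes that degrade matrix changed in both directions. Of 16 matrix metalloproteinases and inhibitors, 8 rose and 3 fell, with a median of 0.91. MMP3, stromelysin, measured 2284 and 1024 in growing cells and 48175 and 54238 in Ctrl-KD OIS cells (log2 difference 5.06 ± 0.31, adjusted p = 2.07e-05), and the OIS values lie near the top of the scale. MMP10, a second stromelysin, measured 115 and 88 against 3435 and 2247 (4.79 ± 0.23), and MMP12, macrophage elastase, was at least 26.5-fold higher. RECK, a membrane-bound inhibitor of these proteases, fell from 5015 and 5186 to 761 and 714 (-2.79 ± 0.09). Proteases of the family and this inhibitor therefore moved in opposite directions. ADAM and ADAMTS proteases went both ways, with 4 of 19 higher and 7 lower, ADAM12 at 2.59 and ADAMTS5, an aggrecanase, at -2.03. In the plasminogen and coagulation list, 6 of 16 rose and 4 fell. TFPI2, a Kunitz-type inhibitor of plasmin and trypsin, measured 4512 and 3484 against 46544 and 48159 (3.58 ± 0.12). A dimmer TFPI2 probe set was called higher at 5.72. Of 6 tested SERPINB genes of 12, 4 rose and 1 fell, with SERPINB8 at 1.59 and SERPINB9, the granzyme B inhibitor, at -1.34. SERPINB3 and SERPINB4, dim in growing cells, were tested only because they are bright in OIS. Members dim everywhere were left out, so the count leans to those that are bright in OIS. PI3, the elastase inhibitor elafin, rose at least 36.5-fold.

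Most contractile genes fell. Of 22 tested smooth muscle genes, 18 fell, none rose and the median was -1.17. TAGLN, the actin-binding protein transgelin, measured 14941 and 15527 against 2192 and 2855 (-2.61 ± 0.13, adjusted p = 7.21e-06). CNN1, calponin, measured 2752 and 2755 against 311 and 529 (-2.76 ± 0.23), and MYH10, a non-muscle myosin heavy chain, measured 7084 and 7001 against 1932 and 1954 (-1.86 ± 0.08). Each of them was lower on both OIS arrays than on either growing array. MYOCD, the coactivator of these genes, fell by 1.84 on the log2 scale. Adhesion receptors also fell on balance, with 17 of 29 lower and 7 higher. The adhesion molecules VCAM1 and ICAM1, both bound by leukocyte integrins, moved in opposite directions. VCAM1 fell from 1556 and 1183 to 93.1 and 59.1 (-4.19 ± 0.26), whereas ICAM1 rose from 468 and 487 to 3798 and 2839 (2.78 ± 0.15). ITGB8, an integrin chain that activates TGF-beta, rose from 458 and 278 to 3511 and 2396 (3.02 ± 0.26).

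**Figure D4:**
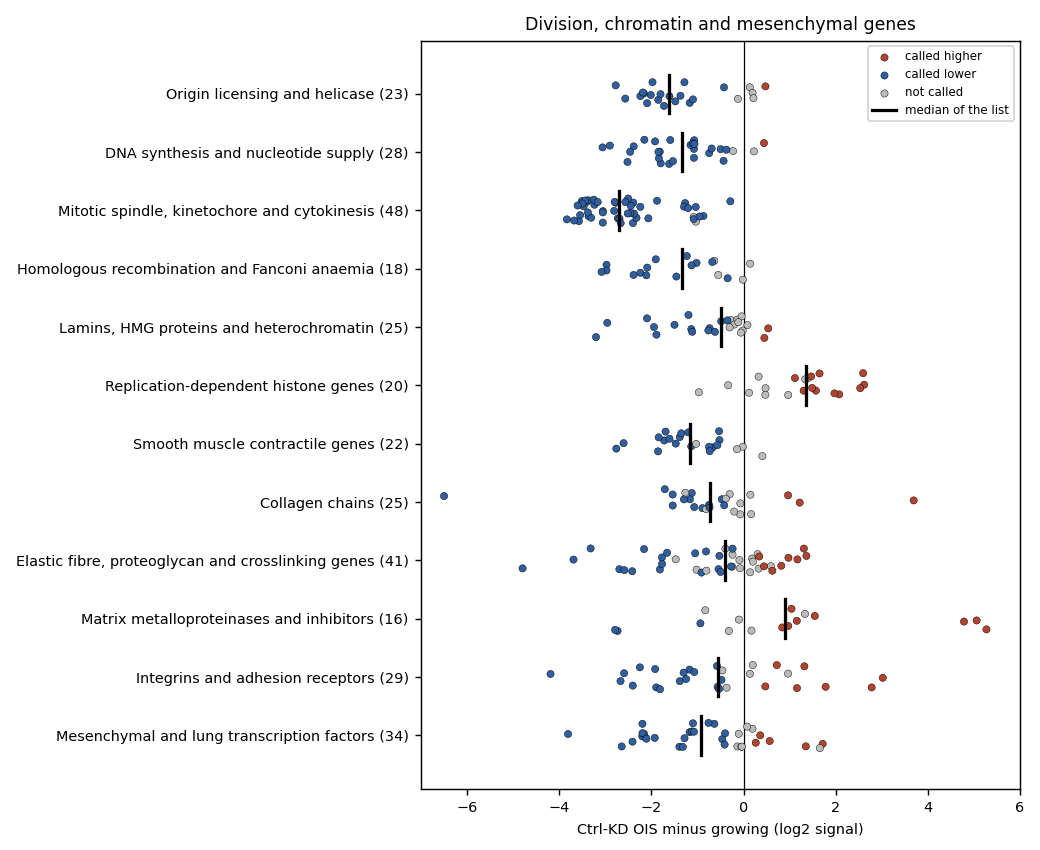
Log2 difference, Ctrl-KD OIS minus growing, of each tested gene in 12 lists for division, chromatin, matrix and mesenchymal genes, with the number tested in parentheses, red and blue points for genes called higher and lower, grey for genes not called and a bar at each list's median. The mitotic list lies left of 0 in all 48 genes (median -2.71), whereas the histone list lies mostly to the right (1.36).

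Targets of ERK, the kinase at the end of the Ras cascade, rose more often than they fell. Of 30 ERK feedback and ETS target genes, 18 rose and 4 fell, with a median of 0.54. DUSP4, a phosphatase that inactivates ERK, measured 123 and 107 against 967 and 768 (2.91 ± 0.19, adjusted p = 2.6e-05). EGR3, an early growth response factor, measured 53.8 and 62.6 against 667 and 362 (3.08 ± 0.33), and IER3, an immediate early gene, measured 7614 and 7253 against 39919 and 46113 (2.53 ± 0.09). SPRY1, a feedback inhibitor of the Sprouty family, went the other way, from 422 and 351 to 208 and 108 (-1.36 ± 0.32, adjusted p = 0.0108). Of 7 tested EGF-family ligands and receptors of 14 listed, 3 ligands rose and the receptor ERBB2 fell by 0.89 on the log2 scale, although it was not called, at 0.17, with its probe sets averaged. EREG, epiregulin, measured 674 and 709.5 against 28961 and 22588 (5.21 ± 0.12), and NRG1, neuregulin, measured 322 and 405 against 8725 and 8639 (4.59 ± 0.12). HBEGF rose by 1.70, although its call was lost when its probe sets were averaged. Another tested probe set of NRG1 and of SPRY1 had a difference of the opposite sign, without a call. The same was seen for other named genes, among them SERPINB8 (-0.31), SNRPA1 (-0.64), NOLC1 (-0.21) and IGFBP5 (0.20).

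In most other growth factor families more genes fell than rose. Among 28 genes listed with the VEGF, FGF, HGF and PDGF families, 14 fell, 5 rose and the median was -0.83. PDGFD, a platelet-derived growth factor, measured 1944 and 1474 against 166 and 132 (-3.52 ± 0.19), FGF7, a growth factor for epithelial cells, fell by 2.83 on the log2 scale, and the receptor KIT was at least 8.82-fold lower. ANGPTL4 was the exception in size, from 52.7 and 88.8 to 1544 and 1950.1 (4.66 ± 0.26). This secreted inhibitor of lipoprotein lipase stands in the list but belongs to none of the named families. Of 35 TGF-beta and BMP genes, 19 fell and 5 rose. A BMP ligand and a BMP target moved in opposite directions, and the activity of the branch was not tested. BMP2 rose from 1644 and 1013 to 12054 and 10352 (3.11 ± 0.21), whereas ID2, a classic BMP target, fell from 5523 and 4928 to 532 and 691 (-3.11 ± 0.14) and SMAD9, a BMP signal transducer, fell by 3.12 on the log2 scale. FST, follistatin, which binds activins, fell from 11104 and 10178 to 818 and 1267 (-3.38 ± 0.19).

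Genes of the WNT pathway fell more often than they rose. Of 25 tested genes, 14 fell, 4 rose and the median was -0.85. WNT2, a WNT of lung mesenchyme, measured 223 and 199 against 6.1 and 4.7 and was at least 4.44-fold lower, and WNT7B, a WNT of epithelia, measured 6.3 and 34.5 against 399.5 and 507 and was at least 8.89-fold higher. The receptor FZD2 fell from 5221 and 5909 to 504 and 378 (-3.67 ± 0.15) and ROR1 by 3.07 on the log2 scale. In the Notch and Hedgehog list, 7 of 22 fell and 3 rose. The Notch targets HEY1 and HES1 rose by 2.30 and 1.58, although HES1 was not called without Ctrl-KD OIS replicate 1 (1.47). Of the Hedgehog targets, PTCH1 fell by 1.93 on the log2 scale and HHIP was at least 5.73-fold lower. Of 19 genes of the insulin-like growth factor axis, 11 fell and 5 rose. PAPPA, a protease that frees IGF from its binding proteins, rose from 2941 and 3472 to 15073 and 12412 (2.10 ± 0.12). Its inhibitor STC1 rose from 6928 and 5565 to 41313 and 45708 (2.81 ± 0.12). Dimmer STC1 probe sets were called higher at 2.89 and 4.65. The binding proteins IGFBP6 and IGFBP5 fell by 2.31 and 1.37 on the log2 scale. Enzyme and inhibitor rose together, and these binding proteins fell.

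NF-kB genes rose more often than they fell. Of 27 genes for NF-kB subunits and feedback, 12 rose, 2 fell and the median was 0.34, beside 21.0% of all genes called higher. NFKBIZ, an atypical nuclear IkB protein, measured 896 and 1096 in growing cells and 15457 and 14146 in Ctrl-KD OIS cells (log2 difference 3.90 ± 0.11, adjusted p = 1.13e-06). TNFAIP6, a hyaluronan-binding protein induced by tumour necrosis factor, measured 191 and 181 against 2053 and 2265 (3.53 ± 0.13, adjusted p = 2.21e-06). The brakes TNIP3 and IRAK3 were dim in growing cells and rose at least 6.71-fold and 5.79-fold. IKBKB, a kinase that activates the pathway, fell by 0.99 on the log2 scale, and its call was lost when its probe sets were averaged.

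The promoters of CXCL2 (chr4:74099166-74099445, minus strand), NFKBIZ (chr3:101827740-101828019, plus strand) and TNFAIP6 (chr2:151357342-151357621, plus strand) are shown, in build GRCh38.p14, because these genes rose by more than 8-fold and hold the motifs searched. Capitals mark GGAATTTCC 77 bases before the start of CXCL2 and 222 before that of NFKBIZ, and the AP-1 motif TGAGTCA 129 bases before that of TNFAIP6. CXCL2, a neutrophil chemokine, measured 32.1 and 50.4 against 22184 and 21917 (9.10 ± 0.20), and its probes may also read CXCL1 and CXCL3.
CXCL2: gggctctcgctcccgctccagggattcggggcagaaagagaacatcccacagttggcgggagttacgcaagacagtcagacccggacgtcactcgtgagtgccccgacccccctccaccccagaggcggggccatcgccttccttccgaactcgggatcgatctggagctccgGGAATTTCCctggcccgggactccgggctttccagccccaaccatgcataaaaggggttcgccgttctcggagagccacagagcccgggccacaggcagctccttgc
NFKBIZ: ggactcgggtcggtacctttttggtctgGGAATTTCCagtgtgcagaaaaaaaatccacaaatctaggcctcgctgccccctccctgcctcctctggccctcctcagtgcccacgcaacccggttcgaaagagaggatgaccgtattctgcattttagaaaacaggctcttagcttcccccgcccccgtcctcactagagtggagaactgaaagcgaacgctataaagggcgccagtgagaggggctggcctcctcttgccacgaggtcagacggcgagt
TNFAIP6: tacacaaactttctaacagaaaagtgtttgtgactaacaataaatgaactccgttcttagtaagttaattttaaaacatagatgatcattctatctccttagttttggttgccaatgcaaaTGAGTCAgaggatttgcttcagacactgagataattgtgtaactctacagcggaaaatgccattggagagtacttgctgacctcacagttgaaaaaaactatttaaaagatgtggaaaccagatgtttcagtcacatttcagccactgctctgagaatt

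With GGAATTTCC, GGACTTTCC or GGGATTTCC taken as NF-kB motifs, 9.01% of the 111 promoters of genes that rose by more than 8-fold held a match, against 1.42% of all 2189 promoters of genes called higher, 1.25% of all tested genes and 1.22% of the whole table. The 10 matches among these 111, taken by their fitted rise, include the chemokine genes CXCL1, CXCL2, CXCL3, CXCL5 and CXCL6. These 5 all lie on chromosome 4, so their matches may not be independent. Of the 23 promoters of the NF-kB list, 26.1% held a match. With TGAGTCA or TGACTCA as the AP-1 motif the shares were 9.91% of the genes that rose by more than 8-fold, 3.93% of all genes called higher, 3.09% of all tested genes and 4.92% of the whole table. The VCAM1 promoter held an NF-kB match too, although VCAM1 fell.

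Prostaglandin genes changed in both directions. Of 19 tested, 6 rose and 4 fell. PTGS2 is described above, and PLA2G4A, the phospholipase that frees its substrate, rose from 208 and 217 to 1116 and 906 (2.24 ± 0.16, adjusted p = 3.53e-05). The prostaglandin receptor PTGER2 fell from 2086 and 1654 to 104 and 105 (-4.15 ± 0.16, adjusted p = 3.26e-06). These enzymes and this receptor thus moved apart, and the list's median of 0.31 hides both.

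Interferon-stimulated genes fell more often than they rose. Of 37 tested, 17 fell, 6 rose and the median was -0.53. IFIT2, an antiviral protein, fell from 381 and 458 to 190 and 98.9 (-1.61 ± 0.32), and GBP2, a guanylate-binding protein, fell by 1.52 on the log2 scale. IFI27, a mitochondrial interferon-induced protein, rose from 86.7 and 128 to 989 and 494 (2.73 ± 0.35), and CMPK2 rose by 2.33. Antigen presentation genes were mixed, with 8 of 25 higher and 5 lower. CTSS, the cathepsin that trims the invariant chain, rose from 78.7 and 174 to 5052 and 4220.5 (5.30 ± 0.33), whereas PSMB9, an immunoproteasome subunit, fell from 1310.2 and 1263 to 389.9 and 383 (-1.74 ± 0.12). In the complement list, 5 of 13 fell and 3 rose. The classical pathway proteases C1R and C1S fell by 3.28 and 2.53 on the log2 scale, and C3, on which all routes converge, was at least 14.1-fold higher.

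Genes of innate sensing, and those of the BCL2 and caspase families, rose more often than they fell. Of 15 tested inflammasome and Toll-like receptor genes of 27 listed, 6 rose and 2 fell. LY96, the partner of the endotoxin receptor, rose from 1703 and 1714 to 4982 and 5301 (1.59 ± 0.09), and RIPK2, a kinase of the NOD pathway, rose from 1747 and 1801 to 5109.5 and 5759 (1.61 ± 0.09). Among 22 BCL2 family and caspase genes, 10 rose and 3 fell. CASP8, an initiator caspase, rose from 554 and 554 to 1589.7 and 1419 (1.44 ± 0.11), and BAK1, a pore-forming killer protein, rose by 1.33. Survival factors diverged, with BCL2A1 up as given above and BCL2 down from 147 and 145 to 54.8 and 77.3 (-1.16 ± 0.34, adjusted p = 0.029). BCL2 lies close to the array median, and its call was lost without a filter on dim genes (-1.16) and without either growing array (-1.15 and -1.17) or Ctrl-KD OIS replicate 1 (-0.91).

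Integrated stress response genes and amino acid transporters fell more often than they rose. Of 21 genes of the integrated stress response, the programme led by ATF4, 12 fell and 2 rose. ASNS, asparagine synthetase, measured 7029 and 7402 against 649 and 778 (-3.34 ± 0.11, adjusted p = 1.77e-06). The serine synthesis enzymes PHGDH and PSAT1 measured 2282 and 2386 against 294 and 280 (-3.02 ± 0.11), and 10986 and 11499 against 1657 and 1957 (-2.64 ± 0.10). All 3 enzymes were over 6 times lower on the OIS arrays. PPP1R15A, which ends the response, rose from 618 and 623 to 1123 and 1372 (1.00 ± 0.13). Of 25 amino acid transporters, 12 fell and 5 rose. SLC7A11, the cystine importer, fell from 9940.1 and 8963 to 838 and 541 (-3.81 ± 0.19), SLC38A4 was at least 9.81-fold lower, and SLC6A15, a carrier of branched-chain amino acids and proline, rose from 197 and 170.4 to 7361 and 8577 (5.44 ± 0.13). Aminoacyl-tRNA synthetases showed no common direction, with 4 of 17 higher, 6 lower and a median of -0.02.

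Genes for metal handling rose more often than they fell. Of 20 genes for zinc, iron and copper, 10 rose and 2 fell. STEAP1, of a family of metalloreductases, rose from 404 and 569 to 4502 and 6110.5 (3.45 ± 0.20), SLC11A2, the divalent metal importer, rose from 1113 and 1099 to 3827 and 3633 (1.75 ± 0.09), and the importer SLC39A8 rose at least 7.13-fold. SLC40A1, the iron exporter ferroportin, fell by 1.46 on the log2 scale, the reverse of these importers. Of 7 tested metallothioneins, 5 rose and none fell, with MT1F at 1.14 and MT1X, near the top of the scale at up to 47531, at 0.60. A dimmer MT1X probe set was called higher at 2.23, from 5755 and 5845 to 26540 and 27958. The metallothioneins are near-identical, so these values are not independent.

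Lipid and redox lists went different ways, with more fatty acid genes higher than lower and more antioxidant genes lower than higher. Cholesterol genes were called at about the background rate, with 5 of 24 higher and 4 lower, among them ABCA1, the cholesterol exporter, up from 892 and 929.5 to 4078 and 2942 (1.93 ± 0.15). Of 37 fatty acid and triglyceride genes, 13 rose and 7 fell, and PPARG, the regulator of fat cells, fell from 781 and 759 to 156 and 147 (-2.35 ± 0.16). Among 34 antioxidant and NRF2 target genes, 11 fell and 5 rose. NQO1, a quinone reductase, fell from 14346 and 12939 to 7549.6 and 8030.2 (-0.81 ± 0.09), and TXNRD1, thioredoxin reductase, fell by 0.76 on the log2 scale. In the aldehyde dehydrogenase and retinoid list, 6 of 19 rose and 4 fell, with ALDH1A3, which makes retinoic acid, at 1.58 and CYP26B1, which removes it, raised as given above.

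Genes of the lysosome and the secretory route rose more often than they fell, mostly by small amounts. Of 16 subunits of the vacuolar ATPase, which acidifies lysosomes, 12 rose, none fell and the median was 0.67. ATP6V1C1 measured 1941 and 2078 against 5262 and 5568 (1.43 ± 0.09, adjusted p = 1.89e-05), and ATP6V1B2 measured 2403 and 2323 against 4997 and 5974 (1.21 ± 0.11). Of 43 lysosomal genes, 21 rose and 6 fell, with a median of 0.32. The protease CTSL measured 4889.7 and 4538 against 13981 and 14159 (1.58 ± 0.08), and the hydrolases NEU1 and GLA rose by 1.58 and 1.44. CTSC, the dipeptidyl peptidase, was an exception, from 16178 and 14752 to 5504 and 6564 (-1.36 ± 0.10). Autophagy genes rose in 11 and fell in 5 of 33, with DRAM1, a p53-induced lysosomal protein, at -1.55. Of 36 genes for transport from the endoplasmic reticulum to the Golgi and exocytosis, 15 rose and 4 fell, with the GTPase RAB31 at 2.04 and RAB3B at -1.72. The unfolded protein response was split, with 6 of 25 higher and 8 lower. Its sensor ERN1 rose from 278 and 284 to 908 and 891 (1.68 ± 0.13), whereas CREB3L1, a membrane-bound factor that drives collagen secretion, fell from 3699 and 3309 to 703 and 684 (-2.33 ± 0.10).

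Proteasome and mitochondrial genes that were called were mostly higher, by small amounts, and many were not called. Of 27 proteasome subunits, 13 rose, 1 fell and 13 were not called, with a median of 0.26 and PSMD8 at 0.81. Of 57 mitochondrial ribosomal proteins, 29 rose and 4 fell, with a median of 0.28 and MRPL17 at 1.18. Of 49 subunits of oxidative phosphorylation, 18 rose, 2 fell and 29 were not called, with a median of 0.12. NDUFV2, a subunit of complex I, measured 5577 and 5358 against 8864 and 8949.7 (0.70 ± 0.08), and the electron carrier CYCS rose from 14656 and 15491 to 21919 and 24291 (0.61 ± 0.08). These differences are below 2-fold for nearly every member, and the median of the oxidative phosphorylation list ranged from 0.05 to 0.21 with the scaling of the arrays.

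Genes for ribosome assembly rose more often than they fell, whereas ribosomal proteins were hardly called. Of 30 genes for ribosome biogenesis and RNA polymerase I, 17 rose and 2 fell, with a median of 0.48. POLR1B, a polymerase I subunit, measured 639 and 657 against 1297 and 1515 (1.11 ± 0.12), and NOLC1, a nucleolar chaperone, measured 2606 and 2602 against 5229.9 and 5644 (1.06 ± 0.08). Of 41 cytosolic ribosomal proteins, only RPS25 rose, by 0.33, and none fell, and this call was lost with quantile normalization and without either growing array (0.33 both times). Splicing factors and nuclear pore genes fell more often than they rose, in 17 against 6 of 42 and in 11 against 4 of 34. MBNL2, a splicing regulator, fell from 4826 and 4535 to 1803 and 1557 (-1.48 ± 0.10), SNRPA1, a U2 snRNP protein, rose by 1.02, and the pore scaffold NUP107 fell by 0.83 on the log2 scale.

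**Figure D5:**
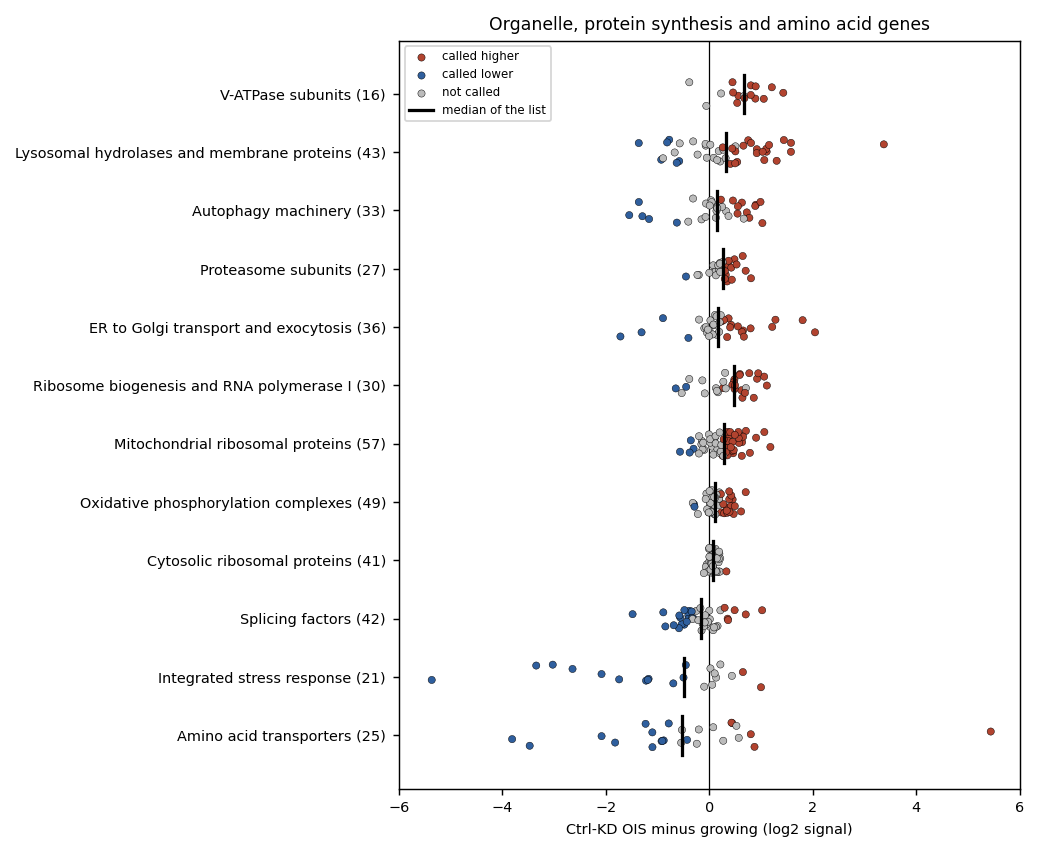
Log2 difference, Ctrl-KD OIS minus growing, of each tested gene in 12 lists for organelles, protein synthesis and amino acid supply, drawn as points with the list median as a bar. The vacuolar ATPase list lies furthest to the right (median 0.67) and cytosolic ribosomal proteins cluster at 0 (0.07), whereas the stress response and amino acid transporter lists spread to the left (-0.50 and -0.53).

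Transcription factors of mesenchyme and lung fell more often than they rose. Of 34 tested mesenchymal and lung factors, 22 fell, 5 rose and the median was -0.92. PRRX2, a homeobox factor of mesenchyme, measured 401 and 408 against 15.6 and 53.1 (-3.81 ± 0.55), TCF21, a factor of lung fibroblasts, measured 1165 and 821 against 164 and 206 (-2.41 ± 0.21), and KLF4 fell by 2.65 on the log2 scale. ZEB2, a repressor of epithelial genes, rose from 995 and 1009 to 4014 and 2709 (1.72 ± 0.17). Of 12 tested HOX genes of 27 listed, 5 fell and none rose, with HOXB3 at -1.43. Clock genes fell in 8 and rose in 3 of 15, with PER3, a repressor of the clock, at -2.27, and the repressors BHLHE41 and BHLHE40 at 3.54 and 1.53. Another probe set of BHLHE41 had the opposite sign, without a call.

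Surface and cytoskeletal genes outside these groups moved both ways, with more lower than higher in the S100 and annexin and the ion channel lists. Keratins and epidermal genes were mostly not called, with PI3 the only member of 16 to rise and DSP, desmoplakin, at -1.59. Among 16 S100 and annexin genes, 2 rose and 5 fell, with S100A16 at 0.90 and the annexin ANXA3 at -2.05. Of 30 semaphorin, ephrin and axon guidance genes, 9 rose and 8 fell, with SEMA7A, a membrane-anchored semaphorin, up from 289.7 and 383 to 1709 and 2061 (2.49 ± 0.17) and SLIT2 down by 2.85 on the log2 scale. Of 26 ion channel genes, 11 fell and 7 rose. ANO1, a chloride channel gated by calcium, measured 966 and 855 against 20.1 and 23.2 and was at least 19.1-fold lower, and KCNJ15, a potassium channel, rose from 81.4 and 34.3 to 1394 and 1058 (4.52 ± 0.39).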

How the data were processed

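The 6 arrays were Affymetrix gene chips. The authors deposited linear signal intensity for 54613 probe sets, made with MAS5 in Affymetrix Expression Console (versions not given in the sources used here), and all are scaled to nearly the same trimmed mean. Of the probe sets, 41091 name a single gene, 1801 name several, 11721 are not named here, and 41037 matched RefSeq by Entrez ID. Signals were used as deposited, on the log2 scale with no offset. A gene is its probe set of highest mean log2 signal among those naming it alone, and was tested if it passed the median signal of the array on 2 or more of the 4 arrays (12863 of 19775 genes, 646 of them dim in a group). Differences were fitted with limma 3.58.1 in R 4.3.3 (lmFit and eBayes with a trend), without covariates, and called at an adjusted p under 0.05. The fit was tested on simulated data with 50 genes changed at each size. It recovered 16% of 1.5-fold, 58% of 2-fold, 70% of 4-fold and 86% of 8-fold changes, with 10 false calls. A gene that was not called may therefore have changed. Far fewer genes changed there than were called here, so recovery in these data may differ. The number of arrays limits the precision, and probe sets were not placed on the genome.

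The comparison and its 61 gene lists (1855 symbols, 146 with no probe set of their own here) were chosen with earlier results of these data known, so list counts and medians are descriptions without a test. Named genes are RB1 and HRAS, the 20 largest called rises and the 20 largest called falls in which the groups do not overlap, in each list at most 4 called genes of largest change, the called member with the largest change against its list's median, and the marker lists. The replicate numbers were not used as pairs. Between the replicate 1 arrays, deviations from the group means had a correlation of 0.02 over the tested genes. With 2 arrays a group this value cannot settle whether the arrays are paired. In all, 13 alternative settings were tried.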

Additional observations from a re-analysis of the deposited data

How the results depend on the processing

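The counts of 2701 higher and 2854 lower genes stayed within 1.5 times under 12 of the 13 alternatives. Averaging all probe sets of a gene gave 1660 higher and 1829 lower. Median centring, which shifts all differences by 0.09 upwards, gave 3141 and 2408. Leaving out each array in turn gave 2111 to 2848 higher and 2119 to 3209 lower, the smaller counts without a growing array. With the replicate number as a block the counts were 2871 higher and 3033 lower, and whether the numbers pair the arrays is not settled (correlation 0.02). Lists with a median under -0.5 numbered 12 to 19 and lists over 0.5 numbered 5 to 9.

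Small list medians changed sign: keratins to 0.20 with a stricter filter, semaphorins to 0.04 with averaged probe sets and between -0.12 and 0.00 with an array left out, prostaglandin genes to -0.28 without a filter and -0.14 with averaged probe sets, or between -0.14 and 0.26 with an array left out, inflammasome genes to -0.30 without a filter, the unfolded protein response to 0.03 with median centring, NRF2 targets to between -0.24 and 0.01 with an array left out and retinoid genes to -0.06 with averaged probe sets. Of the genes named in the results, 164 of 187 called kept their call under every alternative that tested them, and ERBB2, called lower, turned to 0.17 without a call with averaged probe sets and ranged from -0.99 to -0.78 with an array left out. Genes that were not called also changed sign: COL1A1 to 0.02 and FN1 and VIM to 0.01 with median centring, and VIM to 0.11 with averaged probe sets, a setting that called COL1A1 lower at -0.39. With an array left out COL1A1 ranged from -0.17 to 0.02, HRAS from -0.05 to 0.21, RB1 from -0.43 to 0.00 and VIM from -0.21 to 0.05. Without Ctrl-KD OIS replicate 1 COL1A1 (-0.17), HRAS (0.21) and RB1 (-0.43) were called, and without Ctrl-KD OIS replicate 2 VIM was (-0.21). Without a trend in the prior variance 5 named calls were lost: FAP, HES1, ORC5, RPS25 and SPRY1. The cause was not tested. Groups of 2 arrays limit the precision, and signals near the top or below the median of an array bound what can be measured.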

Other observations

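Among 347 tested long noncoding RNAs, 32 were higher and 41 lower in Ctrl-KD OIS cells, beside 2598 and 2747 of the 11853 protein-coding genes. The median difference of the noncoding genes was -0.03. LINC00520 measured 91.2 and 174.8 in growing cells and 1967 and 2384 in senescent cells (4.10 ± 0.29, adjusted p = 3.5e-05), and the groups did not overlap. LINC00622 measured 170.3 and 164 against 1159 and 826 (2.55 ± 0.19), and ZMIZ1-AS1 measured 44.4 and 63.5 against 334 and 276 (2.52 ± 0.31). SERTAD4-AS1 fell from 418 and 374 to 68.9 and 41.8 (-2.88 ± 0.31), and LINC02762 and CARINH were lower at -2.40 and -2.29. These genes were chosen after their values were seen.

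A gene's value can depend on the probe set. The called genes had 5814 other tested probe sets in 3185 genes. Of these, 4786 had the sign of the gene's brightest probe set (82.3%), 2628 were called the same way, and 169, in 141 genes, were called the opposite way. In 6 genes both probe sets were called in opposite directions with changes over 2-fold, and these genes were chosen for that. FOXN3, a forkhead repressor, was at -1.74 by its brightest probe set, whereas another measured 186.7 and 172 in growing cells and 453 and 583 in senescent cells (1.52 ± 0.19, adjusted p = 0.000587). DOCK1, an activator of Rac, was at 1.64, whereas another probe set fell from 620.4 and 548 to 202 and 259 (-1.35 ± 0.18, adjusted p = 0.000869). BCCIP, a partner of BRCA2 and p21, was at 1.20 and -1.28, RAB27A, a GTPase of exocytosis, at 1.22 and -1.09, SBNO1 at 1.02 and -1.11, and IPPK at 1.02 and -2.68.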
